A study of Homo sapiens with 3 samples.

Results

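The ETS transcription factor genes described here are ERG, FLI1, ETS1, ETS2, ETV2, ETV6, ELK3, ELF1, ELF4 and SPI1, 10 of the 20037 protein-coding genes in a RefSeq gene table of GRCh38.p14. They were chosen by symbol, as family members known for roles in endothelial and blood cells, and accessible regions were assigned to each gene and to 10 kb on either side of it. The measurement was ATAC-seq, in which the Tn5 transposase cuts open chromatin, in hCMEC/D3, an immortalized human line derived from the endothelium of small brain vessels and grown to confluence on collagen. There was 1 ATAC library (replicate 2 by its title), from 1 cell line with no treatment and no second group, so the values have no replicate error and nothing could be tested between conditions. All 10 genes were in the table, and 158 of the 106415 broad peaks in the authors' list were assigned to them.

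ETS factors share a DNA-binding domain, the ETS domain, that recognises sites built around the letters GGAA. ERG and FLI1 are close relatives that keep mature endothelial cells in their state and activate genes of the endothelial junction and surface. ETS1 and ETS2 respond to growth factor signals through MAP kinase, ETV6 is mainly a repressor needed in blood stem cells and vessels, and ELK3 is a cofactor of serum response factor. ELF1 and ELF4 act in lymphoid cells, ELF1 also in endothelium, ETV2 acts briefly in the embryo when endothelium and blood are specified, and SPI1 (PU.1) directs myeloid and B-cell fate.

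Windows from 250 bases before to 50 bases after a RefSeq start site were read for 7 of the 10 genes, ERG, ETS2, ETV2, ETV6, ELK3, ELF1 and ELF4; starts of FLI1, ETS1 and SPI1 were not used here. A peak lay over such a window in 6 of these 7, compared with 70.2% of the 15843 protein-coding genes with a window. The following windows (GRCh38.p14, written 5′ to 3′ on the gene's strand) show the starts under the peaks for the first 5 of those 6 genes. For comparison the outer start of ERG and the start of ETV2, neither under a peak, are shown; these were added after their values were seen. Capitals mark each GGAA, or TTCC where the letters are on the other strand.
ERG, inner start, chr21:38498455-38498754, minus strand: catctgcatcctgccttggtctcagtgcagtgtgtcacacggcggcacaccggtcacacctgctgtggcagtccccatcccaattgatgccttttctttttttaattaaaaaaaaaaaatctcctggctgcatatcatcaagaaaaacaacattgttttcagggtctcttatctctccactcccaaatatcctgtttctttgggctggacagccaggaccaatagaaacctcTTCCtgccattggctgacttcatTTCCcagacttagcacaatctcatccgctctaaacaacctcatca
ERG, outer start, chr21:38660618-38660917, minus strand: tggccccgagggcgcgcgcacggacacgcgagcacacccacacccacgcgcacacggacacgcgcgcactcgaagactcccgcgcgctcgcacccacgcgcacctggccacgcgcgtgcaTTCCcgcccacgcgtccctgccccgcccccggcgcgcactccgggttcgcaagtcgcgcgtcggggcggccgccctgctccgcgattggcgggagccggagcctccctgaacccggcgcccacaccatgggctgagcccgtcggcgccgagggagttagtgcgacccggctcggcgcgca
ETS2, chr21:38804933-38805232, plus strand: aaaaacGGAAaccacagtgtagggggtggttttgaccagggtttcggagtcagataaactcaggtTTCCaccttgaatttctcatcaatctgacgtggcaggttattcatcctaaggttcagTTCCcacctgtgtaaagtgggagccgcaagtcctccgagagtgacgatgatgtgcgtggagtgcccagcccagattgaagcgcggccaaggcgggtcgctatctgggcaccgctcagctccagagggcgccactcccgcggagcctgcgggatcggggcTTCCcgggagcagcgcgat
ETV6, chr12:11649424-11649723, plus strand: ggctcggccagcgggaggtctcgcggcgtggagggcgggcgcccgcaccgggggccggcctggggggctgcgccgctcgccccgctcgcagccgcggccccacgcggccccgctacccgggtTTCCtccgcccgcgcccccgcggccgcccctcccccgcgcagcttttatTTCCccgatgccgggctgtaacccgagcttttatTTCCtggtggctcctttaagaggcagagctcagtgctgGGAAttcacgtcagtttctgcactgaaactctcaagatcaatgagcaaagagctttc
ELK3, inner start, chr12:96255248-96255547, plus strand: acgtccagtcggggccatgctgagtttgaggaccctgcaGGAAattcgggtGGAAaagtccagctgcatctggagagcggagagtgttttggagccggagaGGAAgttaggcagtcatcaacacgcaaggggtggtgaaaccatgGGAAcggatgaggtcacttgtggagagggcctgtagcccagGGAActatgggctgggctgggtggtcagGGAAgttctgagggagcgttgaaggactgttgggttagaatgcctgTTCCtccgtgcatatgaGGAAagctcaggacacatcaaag
ELF1, outer start, chr13:41061337-41061636, minus strand: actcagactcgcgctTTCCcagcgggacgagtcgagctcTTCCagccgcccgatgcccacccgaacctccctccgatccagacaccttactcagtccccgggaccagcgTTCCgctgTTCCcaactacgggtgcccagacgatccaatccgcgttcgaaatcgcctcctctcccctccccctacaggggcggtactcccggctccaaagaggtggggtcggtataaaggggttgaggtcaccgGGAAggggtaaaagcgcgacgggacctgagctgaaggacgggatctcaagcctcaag
ETV2, chr19:35641495-35641794, plus strand: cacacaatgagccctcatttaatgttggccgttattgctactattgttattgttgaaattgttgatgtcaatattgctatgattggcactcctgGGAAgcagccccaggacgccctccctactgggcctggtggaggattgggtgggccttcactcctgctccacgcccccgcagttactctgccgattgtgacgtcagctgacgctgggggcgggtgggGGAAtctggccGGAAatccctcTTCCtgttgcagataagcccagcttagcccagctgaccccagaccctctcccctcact

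The windows differed widely in base composition. The outer ERG start had 77.0% G and C with 53 CpG pairs and no peak over it, whereas the inner ERG start, under a peak of 37.2 tags, had 45.7% G and C with 4 CpG pairs. Pileup is the authors' value for the coverage of a peak, in extended tags. The list has no summit column, and for broad peaks the caller averages pileup and fold over the whole region, so a long peak can hold a summit well above its value. The ETV6 start had 69.0% G and C with 33 CpG pairs, and the outer ELK3 start, also under a peak, 83.7% with 48. GGAA occurred 8 times in the inner ELK3 window, 5 times in the outer ELF1 window and 2 times in the inner ERG window. It occurred 2 times in the outer ELK3 window and 7 times in the ETS2 window that is not shown. These letters are short and common, and 95.1% of all 22199 windows at protein-coding genes held GGAA on some strand, with a median of 3. The longer ETS site CCGGAAGT, which contains GGAA and was searched on both strands, was in none of the 16 windows of these genes and in 5.34% of all windows. TGACTCA, an AP-1 site, was in 1 of the 16, an inner ELF4 window, against 4.01% of all windows. GATAAG, in the site of GATA factors, was in 4 of the 16, of which 2 are overlapping windows at the inner ERG starts, against 5.44%.

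Most of the accessible regions at these genes lay within the gene bodies. Of the 158 peaks, 128 were inside a gene and away from its ends, 9 lay within 1 kb of a gene end and 21 lay in the 10 kb flanks. Median pileup and length were 40.5 tags and 781 bp for the peaks at ends, 27.2 tags and 433 bp for those inside and 28.45 tags and 417 bp for those in the flanks. At least 1 end peak was found at 8 of the 10 genes, beside 72.8% of all protein-coding genes, a share close to that of the ETS genes. Fold is the pileup over the caller's local background. Counting only peaks with a fold of at least 4, ETS1 and SPI1, 2 of the 10 genes, kept an end peak. This compares with 56.0% of all protein-coding genes, so the order was turned. Both peaks lay at the end of lower coordinate. Starts of ETS1 and SPI1 were not used, so these peaks are not shown to lie at a start. At SPI1 the peak nearest to the other end lay 3771 bp from it. Without the fold filter, FLI1 and ELF4 had no end peak. Their nearest peaks reached to 1735 bp from an end of FLI1 and to 1082 bp from an end of ELF4, so ELF4 missed the 1 kb limit narrowly, and the end peak of ERG lay 170 bp from its end. Inside peaks were present at 9 of the 10 genes, all but ETV2, beside 55.9% of protein-coding genes of every length. Long genes in general hold most of their peaks inside. Among the 400 protein-coding genes nearest in length, the median was 9 inside peaks beside 11 in all for ERG. It was 8 beside 10 for ETV6 and 5 beside 8 for FLI1. A peak classed as inside can also lie over a start, as at the inner starts of ERG.

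**Figure D1:**
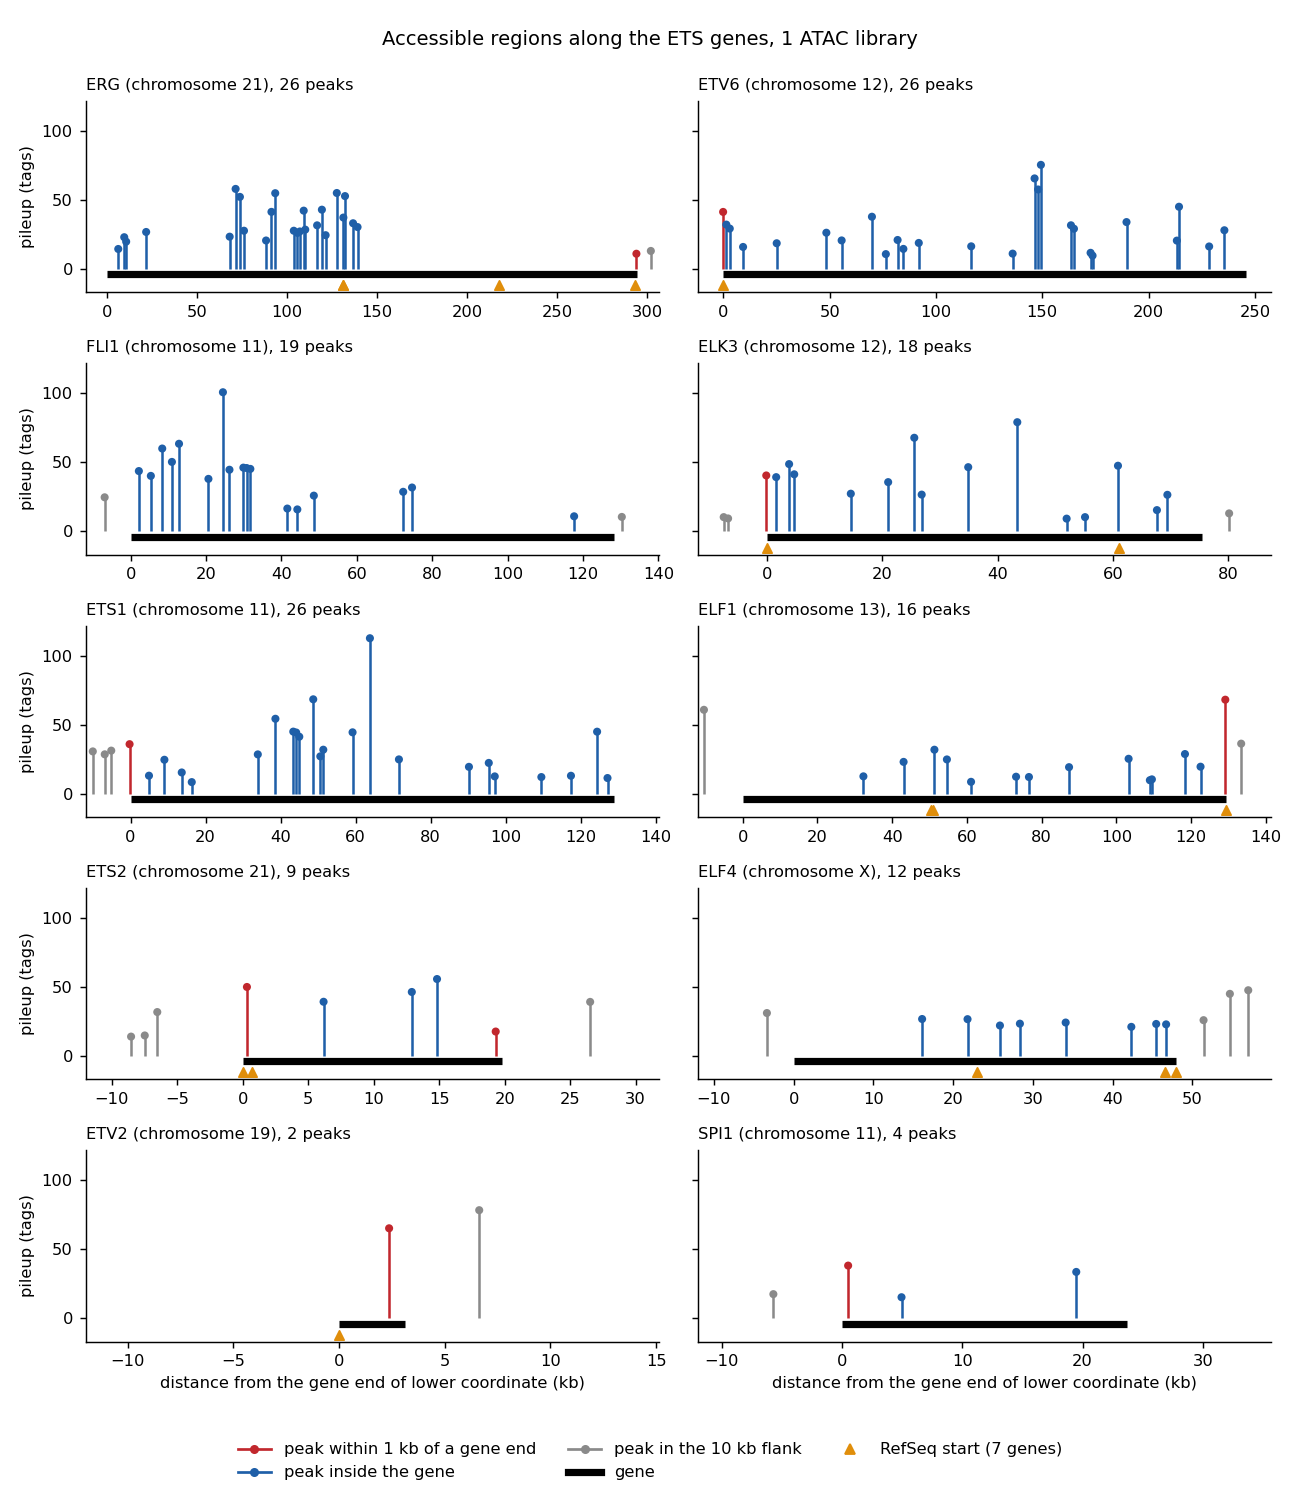
Pileup of each peak (tags, vertical axis) along the 10 ETS genes, by distance from the gene end of lower coordinate (kb, horizontal axis), in 1 ATAC library. Black bars are the genes, triangles the RefSeq starts of 7 genes, and colours the place of a peak; the 20 crowded peaks in the middle of ERG and the peaks of 113 tags in ETS1 and 101 tags in FLI1 stand out.

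Peak number rises with gene length, so each gene was set beside the 200 protein-coding genes next shorter and the 200 next longer. ETS1, with 26 peaks, was exceeded by 1 of these 400 genes, ETS2, with 9 peaks, by 2, ELK3, with 18 peaks, by 2, and ELF4, with 12 peaks, by 4. FLI1, with 19 peaks, was exceeded by 24 of 400, ETV6, with 26 peaks, by 41, ELF1, with 16 peaks, by 44, and ERG, with 26 peaks, by 46. SPI1 (4 peaks, against a median of 3) was exceeded by 124 and ETV2 (2 peaks, against a median of 2) by 157. Thus, with all peaks counted, 8 of the 10 genes had more peaks than the upper quartile of genes of their length. The factors of the embryo and of the myeloid lineage, ETV2 and SPI1, did not. The median percentile over the 10 genes was 91.1, where a percentile is the share of the 400 genes with fewer peaks and ties count 0.5. As these are ranks within 1 library, no error can be attached to them. With the same minimum fold of 4, the percentile of peak number became 52.9 for ERG (from 88.0), 49.4 for FLI1 (from 93.25) and 48.9 for ELF1 (from 87.5). ETS1, ETS2, ELF4 and ELK3 stayed at 97.5, 98.25, 97.1 and 90.6, and ETV6 at 86.5. SPI1 then stood at 75.5 and ETV2 at 53.25. Both were above ERG, FLI1 and ELF1, so their contrast with those genes was not kept.

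**Figure D2:**
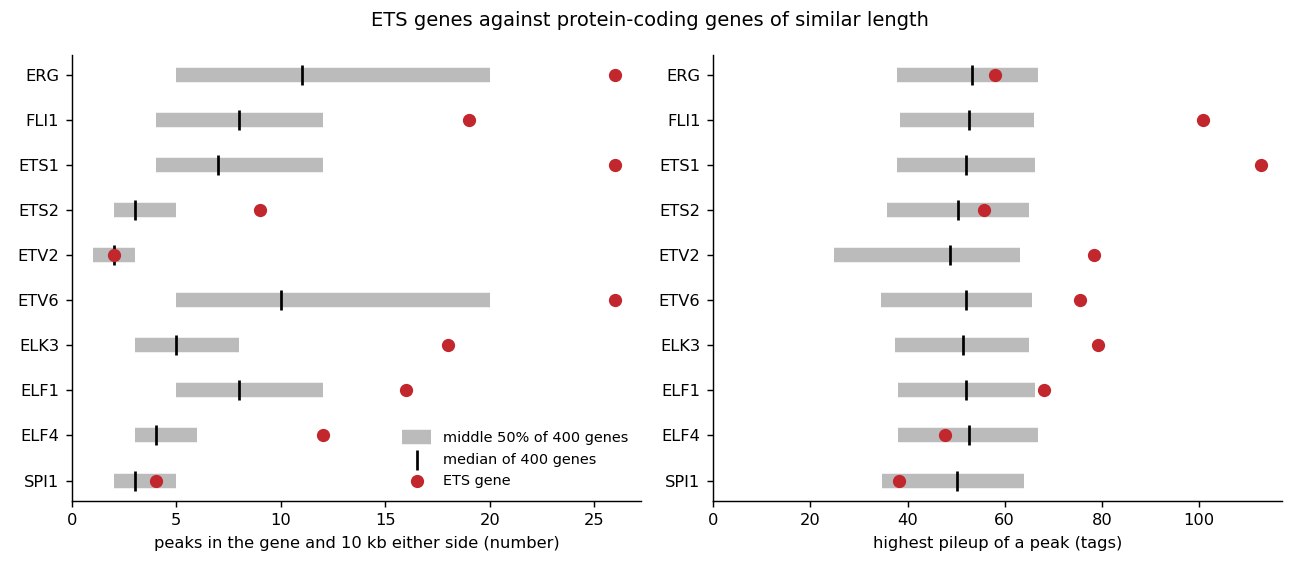
Number of peaks (left) and highest pileup in tags (right) of the 10 ETS genes (points) beside the median and the middle 50% of 400 protein-coding genes of similar length. In peak number 8 points lie beyond the grey bars, ETV2 and SPI1 within them, and in pileup FLI1 and ETS1 lie farthest to the right.

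ERG is widely used as a nuclear marker of endothelium. Its 26 peaks ran from 10.98 to 58.1 tags, with a median of 28.1. They were crowded: 20 of them lay in 72.0 kb of the 295 kb gene, chr21:38435089-38507112, with a median of 32.4 tags against 17.1 tags for the other 6. The peak of 690 bp over the inner starts, chr21:38498174-38498863, was part of this stretch, and a peak of 52.8 tags stood beside it at chr21:38499183-38499670. The highest, of 58.1 tags and fold 5.13, was at chr21:38438457-38438847, inside the gene. Upstream of the stretch no peak was listed over 154 kb, up to a weak one of 10.98 tags at chr21:38661033-38661613, which lay 116 bp beyond the window of the outer start. Another start listed by RefSeq, chr21:38584896-38585195, fell in that gap, 75838 bp from the nearest peak. The narrowest stretch with 13 of the 26 peaks took 11.54% of the gene and its flanks, against a median of 26.3% for the 259 genes of similar length with at least 8 peaks (percentile 9.65). This measure of crowding was chosen after the ERG peaks had been seen.

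FLI1, the closest relative of ERG, had 19 peaks, of which 17 were inside the gene and 2 in its flanks. Pileups ran from 10.35 to 101 tags with a median of 40.15, the highest median among the members with more than 2 peaks. The strongest peak, chr11:128709313-128709877, had 101 tags with a fold of 6.61 and stood at the 99.8th percentile of all 106415 peaks. Peaks followed each other at gaps under 15 kb from chr11:128677967 to chr11:128734059, 15 peaks in 56.1 kb with a median of 44.6 tags, and the 4 beyond had a median of 19.7 tags. The longest peak, of 1364 bp and 60.02 tags, at chr11:128692808-128694171, lay within SENCR, a long noncoding RNA gene transcribed antisense from the start of FLI1, and the next, of 50.3 tags, lay at an end of SENCR. A further peak, of 43.7 tags, lay at an end of LOC101929538, another long noncoding RNA gene. Accessibility at such places cannot be assigned to either gene alone. Starts of FLI1 were not used here, so whether any of these peaks lies at a start of FLI1 was not examined.

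ETS1 carried the highest pileup of all 10 genes. This peak, chr11:128522141-128522978, had 113 tags with a fold of 6.02 and a length of 838 bp, and stood at the 99.9th percentile of all peaks. It overlapped the microRNA gene MIR6090, which lies inside ETS1. Starts of ETS1 were not used here, so whether this peak lies at a start of ETS1 was not examined. Of the 26 ETS1 peaks, 11 lay in 37.9 kb around and below it, chr11:128492537-128530441, with a median of 44.3 tags, against 19.4 tags for the other 15. The highest fold, 9.75, belonged to a peak of 44.9 tags at chr11:128582910-128583302, inside both ETS1 and LOC105369565. Its end peak, at the lower coordinate, had 35.8 tags and a fold of 5.83, and 9 of the 26 peaks also lay at or in another gene, all of them long noncoding RNA or microRNA genes.

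ETS2 is short, 19.8 kb, and had 9 peaks, of which 2 were at its ends, 3 inside and 4 in the flanks. The peak at its start, chr21:38804649-38806365, was 1717 bp long with 50.01 tags and covered the windows of both RefSeq starts. The highest, of 55.8 tags, was inside the gene at chr21:38819822-38820220, and the peak at the far end had 17.6 tags. A flank peak of 39.2 tags at chr21:38831353-38832071 had the highest fold of the gene, 8.23. No ETS2 peak lay at or in another gene.

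ERG and ETS2 are neighbours on chromosome 21, and ETS1 and FLI1 on chromosome 11. The 143 kb between ERG and ETS2 held 16 peaks, or 11.2 per 100 kb, beside 8.49 in ERG, 25.3 in ETS2 and 3.17 on chromosome 21 from its first to its last peak. The highest of them had 51.5 tags, at chr21:38773065-38773729. The 97.6 kb between ETS1 and FLI1 held 9 peaks, or 9.22 per 100 kb, beside 17.9 in ETS1, 13.3 in FLI1 and 3.93 on chromosome 11. The highest there had 39.0 tags and a fold of 8.60, at chr11:128653723-128654262. Both intervals were thus denser in peaks than their chromosomes, and the interval beside ERG was denser than ERG itself.

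ETV6 had 26 peaks spread over 246 kb, 25 of them inside the gene. The peak over its start, chr12:11648702-11650370, was 1669 bp long with 41.3 tags. Its highest pileups were in 3 adjacent peaks far inside the gene, of 65.7, 57.6 and 75.5 tags, between chr12:11795626 and chr12:11799288. The median over all its peaks was 23.6 tags, and the narrowest stretch with 13 of them took 36.7% of the region, compared with 11.54% at ERG.

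ELK3 had 18 peaks in and around 75.45 kb, from 9.11 to 79.2 tags. The highest, of 79.2 tags and fold 8.70, lay inside the gene at chr12:96237436-96238118, and a peak of 67.8 tags lay at chr12:96219430-96220387. Both RefSeq starts were under peaks, the outer with 40.5 tags and fold 3.04 and the inner with 47.5 tags and fold 5.87. No ELK3 peak lay at or in another gene.

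ELF1 had 16 peaks. The peak at its outer start, chr13:41060008-41062181, was the longest at any of the 10 genes, 2174 bp, with 68.1 tags and a fold of 3.35. It also covered ends of WBP4, the neighbouring gene, and of TRE-TTC1-2, a transfer RNA gene, and was the only end peak of the 10 genes shared with an end of another gene. Of the inner starts, chr13:40982850-40983149 was under a peak of 31.8 tags and chr13:40982233-40982532 was 248 bp from it. ELF4, on chromosome X, had 12 peaks of rather even pileup, from 21.0 to 47.6 tags. Its outer start, at the gene end, had no peak over it, and the start at chrX:130110448-130110747 was under a peak of 200 bp with 22.9 tags and a fold of 2.40, which also lay at an end of RAB33A. The highest ELF4 peaks, of 45.0 and 47.6 tags, were in the flank inside RAB33A.

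ETV2 and SPI1 had the fewest peaks. Neither of the ETV2 peaks covered its start, and the nearer lay 1446 bp from the window shown above. The end peak, of 1740 bp and 65.3 tags at chr19:35643240-35644979, lay at the opposite end of this 3.13 kb gene, and the flank peak, of 78.4 tags, lay at an end of COX6B1, a respiratory chain gene. At SPI1 there were 4 peaks of 15.2 to 38.2 tags. The highest, with a fold of 7.14, was at chr11:47355039-47355674, within 179 bp of the end of lower coordinate, and another, of 33.6 tags, was inside the gene at chr11:47373886-47374776. Its highest pileup was the lowest among the 10 genes and stood at the 27.6th percentile of genes of similar length. ETV2, by contrast, stood at the 87.5th percentile by the peak it has near COX6B1. Its end peak of 65.3 tags was also above the upper quartile of genes of similar length, 63.1 tags.

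Over the 10 genes the median of the highest pileup was 71.8 tags, and 8 were above the median of genes of similar length, which ran from 48.7 to 53.2 tags. ETS1 stood at percentile 99.7 and FLI1 at 96.6, whereas ERG, at 59.9, and ETS2, at 60.3, lay nearer the middle. ELF4, at 42.0, and SPI1 were below it. The ETS peaks had a median of 27.9 tags and a fold of 3.74, compared with 21.6 tags and a fold of 4.49 over all peaks. The local background, computed from pileup and fold and so only approximate where both are averages over a region, had a median of 5.73 tags at the ETS peaks and 3.32 over all peaks. It was 13.6 tags in the crowded stretch of FLI1 and 9.91 in that of ERG. Because this background is computed from pileup and fold, a higher pileup with a lower fold gives a higher background by arithmetic. It is therefore not a separate observation beside the lower folds. The caller takes its background from 10000 bp of the same library, so neighbouring peaks count in it. The part this has in the folds was not tested.

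**Figure D3:**
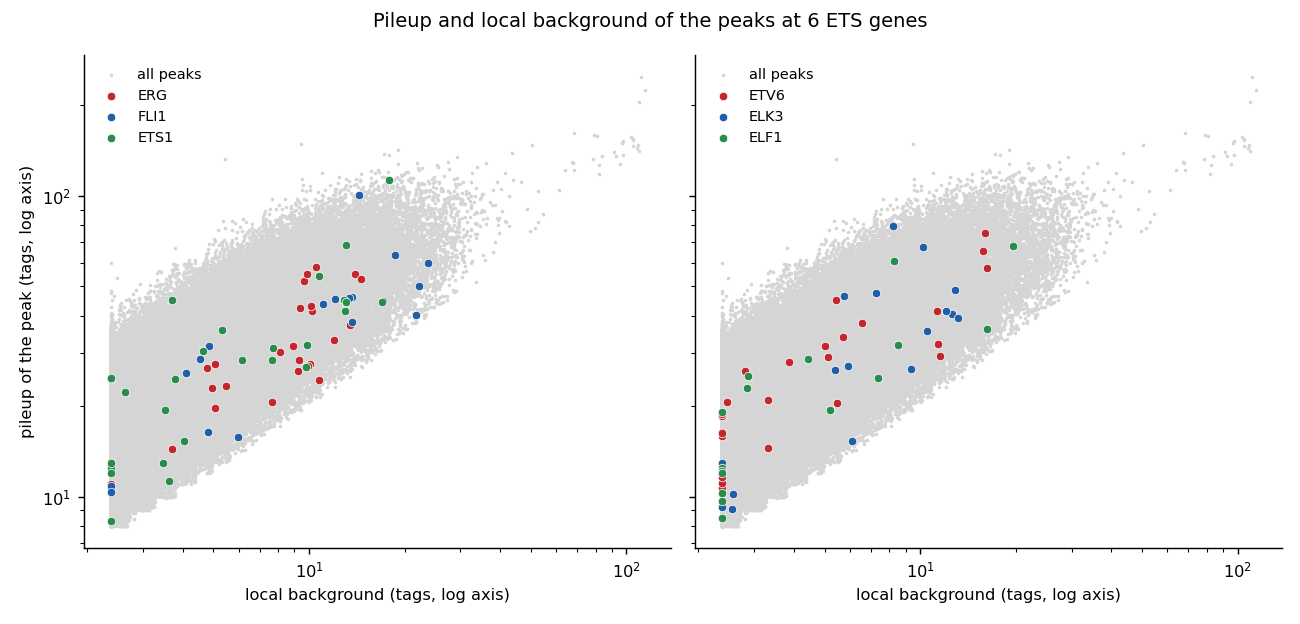
Pileup of each peak against its local background (tags, both axes logarithmic) for ERG, FLI1 and ETS1 (left) and ETV6, ELK3 and ELF1 (right), with all 106415 peaks in grey. Local background is computed from pileup and fold. Most ERG and FLI1 peaks lie to the right, at backgrounds above the median of 3.32 tags of all peaks.

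The other 18 ETS family genes, taken as the rest of the family, are used in many tissues. Of these, 15 (83.3%) had an end peak, beside 8 of the 10 genes described and 72.8% of all protein-coding genes. Peak number at the 18 genes ran from 1 to 9 with a median of 3, equal to the median of all protein-coding genes. Their median percentile among genes of similar length was 48.9, compared with 91.1 for the 10 genes described, with all peaks counted. The difference was not tested. With a fold of at least 4 the median of the 10 genes was 81.0, and that of the other 18 was not computed. The most peaks, 9, were at ELF2, a relative of ELF1. ETV4 and ERF had 7 each and stood at the 95.5th and 98.4th percentile, and a peak at ERF had 123 tags, more than any at the 10 genes. SPIC, a macrophage factor, had the fewest, 1 flank peak, and SPIC, ETV3L and the epithelial factor EHF had no end peak. The 10 genes are also longer, with a median of 102 kb against 18.5 kb, which the percentile by length takes into account and the raw number does not.

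**Figure D4:**
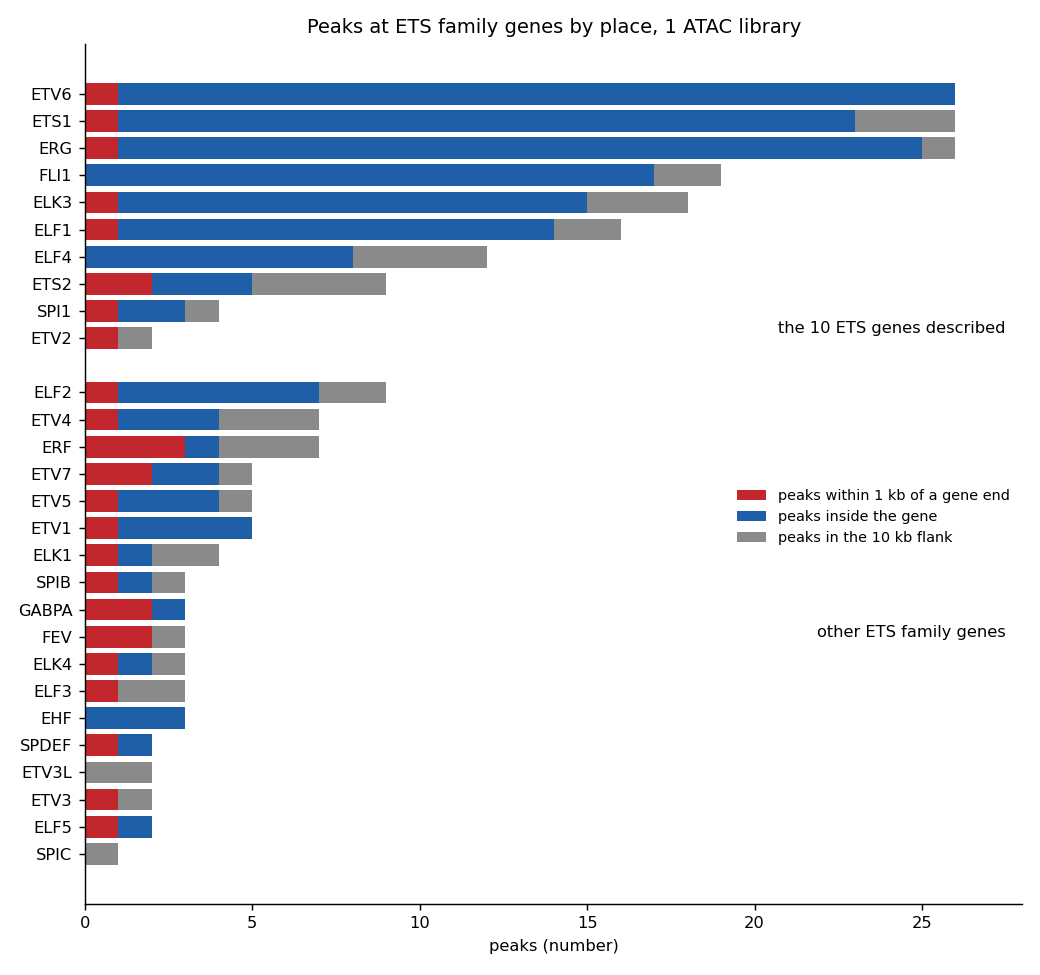
Number of peaks (horizontal axis) at the 10 ETS genes described and at 18 other ETS family genes, in 1 ATAC library, divided by place. Bars run from 1 peak at SPIC to 26 at ERG, ETS1 and ETV6, and the longest bar among the other family genes is ELF2 with 9.

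Genes known to be activated by ETS factors were read in the same way, from lists chosen with earlier results of these data known. All 20 endothelial target genes on the list had an end peak, beside 72.8% of protein-coding genes, and their median percentile by length was 90.75. FLT1, a VEGF receptor gene, had the most peaks, 30, and the junction gene CLDN5 and the deacetylase gene HDAC6 the fewest, 3 each. Of 9 myeloid targets of SPI1, 8 had an end peak, all but FCGR1A, at a median percentile of 51.0. CSF1R had the most, 11, and CSF3R, ITGAM, FCGR1A and TYROBP had 2 each. Cell type markers were also read. All 10 endothelial markers had an end peak, but 9 of these are among the 20 target genes, so this count adds little to the one above. An end peak was found at 5 of 6 blood markers, 3 of which are also among the 9 myeloid targets, at 4 of 6 mural and 4 of 6 epithelial markers, shares near the 72.8% of all protein-coding genes, and at 2 of 5 astrocyte markers. Median percentiles by length were 90.75 for the endothelial, 65.3 for the blood, 66.8 for the mural, 55.6 for the epithelial and 50.9 for the astrocyte markers. Single markers, chosen here after their values were seen, did not follow this order: the mural markers CSPG4 (12 peaks) and PDGFRB (11), the astrocyte marker GFAP (8) and the epithelial marker KRT8 (11) stood at the 99.1, 98.0, 98.4 and 96.4 percentile, the endothelial marker KDR (4) at 45.1, and no peak was listed at KCNJ8 or AQP4. Other members of the same lists stood elsewhere, such as PECAM1 at 99.75, RGS5 at 57.9, ESRP1 at 7.6 and SLC1A3 at 40.6. The label of the cells was not tested with single markers. By list the endothelial markers had the highest median percentile, and differences between lists were not tested. An end peak shows open chromatin and not expression, and the RNA libraries were not used here for these genes.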

How the data were processed

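The deposited peak list came from 1 ATAC-seq library of hCMEC/D3. Per the file headers, the authors called broad peaks with MACS 2.2.7.1 without a control, in single-end mode, with q of 0.05 and 0.1, a shift of -100 bp and tags lengthened to 200 bp, from 22188172 tags kept of 31532245 (1 per position). The header gives an effective genome size of 1870000000 bp, the mouse preset, which sets the floor of the background at 2.37 tags. Pileup is a signal in extended tags, fold a ratio to the local background, and −log10 q the caller's confidence, all the authors' deposited values, used only within this list. The submitters' processing notes name the builds GRCh38 and mm10 with no role. On the 6 chromosomes of the genes, 51.3% to 68.0% of RefSeq promoter windows were over a peak, and at most 7.82% with the peaks moved by 10000 or 50000 bp.

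Peaks were placed on gene extents with an overlap of at least 1 bp, first as within 1 kb of a gene end, else inside, else within 10 kb. For broad peaks pileup and fold are averages over the region, so local background, taken as (pileup + 1) divided by fold, minus 1, is approximate. Scripts used Python 3.11.15, numpy 2.4.6 and pandas 2.3.3, and placement was tested on simulated data. Sequences are RefSeq's. The 10 genes and the lists were chosen with earlier results of these data known. The text names all 10 genes, genes sharing an end peak with them, and in each list the genes with the most and fewest peaks and those without an end peak. The lowest pileup listed was 8.0 tags, so weaker sites were not detectable. The 2 RNA tables list transcripts without gene names and were not used. A marker gene of the blood list is not reported here.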

Additional observations from a re-analysis of the deposited data

How the results depend on the processing

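Of 35 alternative values, 32 stayed near the reported ones (within 1.5-fold for counts and pileup, within 10 percentage points for the percentile) and 3 moved, all with a fold of at least 4. Under that filter 2 of the 10 genes kept an end peak, ETS1 and SPI1 (56.0% of protein-coding genes), 68 of the 158 peaks were left, and the median percentile was 81.0. Elsewhere the number of genes with an end peak ran from 6 to 10. The 6 were of 7 with an annotated start, by that start alone, beside 74.0% of protein-coding genes with one. The 10 were found with windows of 2500 bp, beside 79.2% of protein-coding genes. Without the fold filter the median percentile ran from 84.1 (flanks of 50 kb) to 94.1 (pileup of at least 15 tags). Peaks numbered 108 (−log10 q of at least 5) to 211 (flanks of 50 kb). The end peak of ERG was lost with −log10 q of at least 5 and with pileup of at least 15 tags, and that of ELF1 with peaks at or in another gene left out. No paired analysis was possible because the ATAC assay has 1 library. With no replicate, no value has an error, and where no peak is listed, open chromatin was below what these tags could show.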

Other observations

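Promoter windows of all protein-coding genes were searched for the longer ETS site CCGGAAGT on both strands. It was present in 7.94% of the 14378 windows under a peak and in 0.563% of the 7821 windows without a peak. Windows under a peak were richer in G and C (median 66.0% against 52.3%). Among windows with 60% to 70% G and C, a range chosen after the first values were seen, the shares were 9.57% of 5603 and 0.766% of 1567, and the median number of CpG pairs was 26 and 14. The letters GATAAG, in the site of another factor family, went the other way, with 3.46% under a peak and 9.09% without, and TGACTCA was in 3.44% and 5.05%. In the same range of G and C these contrasts were smaller, 2.82% and 5.49% for GATAAG and 2.96% and 3.45% for TGACTCA. These are counts of letters in 1 library, windows of the same gene share sequence, and no test was made.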
